A study of Mus musculus with 2 samples.

Results

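The genes described here are 9 mouse complement genes: *C3*, its alternative pathway partners *Cfb* and *Cfp*, the anaphylatoxin receptors *C3ar1*, *C5ar1* and *C5ar2*, and the membrane regulators *Cd55*, *Cr1l* and *Cd59a*. They were taken by symbol from the 32285 genes of the deposited feature list, each symbol naming 1 gene. Their RNA was followed through single cells sorted from adult mouse brain, in 2 droplet libraries sequenced from the 3′ end of the transcripts. One library came from *Disc1* WT/WT mice and the other from *Disc1* LI/LI mice, which are homozygous for the locus impairment (LI) allele of *Disc1*. Each library pooled 6 male littermate mice of 23 weeks, and both were dissociated with actinomycin D and sorted as CD45 low, CD11b+ cells, so that animals cannot be told apart and each genotype is 1 sample. No test between genotypes exists with 1 library each, and every interval below is a 95% interval for counting error only.

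Complement is a cascade of blood and tissue proteins that tags particles for removal. C3 is its central component: cleavage leaves one fragment on the target, where complement receptor 3 of microglia and other phagocytes binds it, and frees the small peptide C3a, which signals through C3ar1. The C5a peptide, released later in the cascade, binds C5ar1 and C5ar2. Factor B (*Cfb*) and properdin (*Cfp*) form and stabilise the enzyme that cleaves further C3, while Cd55 and the rodent protein Crry (*Cr1l*) break that enzyme down on host membranes, and Cd59a blocks the final pore. In the brain, C1q and C3 are known for marking synapses that microglia engulf.

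After barcodes under 200 genes or above 10% mitochondrial unique molecular identifiers (UMIs) were left out, 7032 cells remained in the *Disc1* WT/WT library and 7817 in the *Disc1* LI/LI library, which were deposited with 33601957 and 47731571 UMIs. *Disc1* itself had 642 UMIs in the *Disc1* WT/WT library, or 19.1 UMIs per 1000000 (CPM), and 22 UMIs or 0.461 CPM in the *Disc1* LI/LI library, the order that the labels give. Cells were classed by marker share: microglia had at least 0.5% of UMIs from 6 homeostatic genes and under 1% from *S100a8* and *S100a9*, neutrophils had at least 3% from the latter pair, and the rest were other cells. The *Disc1* WT/WT library held 6180 microglia, 116 neutrophils and 736 other cells, against 1950, 3622 and 2245 in the *Disc1* LI/LI library. Neutrophils thus made up 1.65% of one library and 46.3% of the other, although the gate is set for microglia, and shares of classes may follow the sort. Markers that the rule did not use fitted the class names: 10 further microglia genes summed to 34165 and 34591 CPM in microglia, and 12 further neutrophil genes to 88611 and 104040 CPM in neutrophils. The libraries shared 12 barcodes.

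In these libraries *C3* had its highest levels in neutrophils and monocyte-like cells, *C3ar1* in microglia and macrophage-like cells, and *C5ar1* in macrophage-like cells and neutrophils, with microglia below them. The stretches of DNA shown here are the 250 bases before the annotated start of *C3*, which was low in microglia, of *C5ar1*, which was high in both microglia and neutrophils, and of *C3ar1*, which was high in microglia. They are RefSeq windows of mouse build GRCm38.p6, all from the minus strand and written 5′ to 3′, at chr17:57228137-57228386 (*C3*), chr7:16259339-16259588 (*C5ar1*) and chr6:122856158-122856407 (*C3ar1*). The RefSeq start of *C5ar1* lies downstream of the GENCODE start used for gene coordinates below, so most of its window, with both marked matches, is inside the gene as GENCODE draws it. Capitals mark matches of 5 short motifs searched on both strands.
C3: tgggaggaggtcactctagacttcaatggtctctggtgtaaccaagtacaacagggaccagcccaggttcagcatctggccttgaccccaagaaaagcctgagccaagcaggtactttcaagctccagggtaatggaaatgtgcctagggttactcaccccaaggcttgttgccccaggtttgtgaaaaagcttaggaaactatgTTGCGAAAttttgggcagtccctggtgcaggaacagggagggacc
C5ar1: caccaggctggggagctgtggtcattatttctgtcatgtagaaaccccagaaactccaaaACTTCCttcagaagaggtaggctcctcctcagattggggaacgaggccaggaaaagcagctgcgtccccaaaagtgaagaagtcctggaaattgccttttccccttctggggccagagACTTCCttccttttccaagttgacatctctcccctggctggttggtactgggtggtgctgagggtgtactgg
C3ar1: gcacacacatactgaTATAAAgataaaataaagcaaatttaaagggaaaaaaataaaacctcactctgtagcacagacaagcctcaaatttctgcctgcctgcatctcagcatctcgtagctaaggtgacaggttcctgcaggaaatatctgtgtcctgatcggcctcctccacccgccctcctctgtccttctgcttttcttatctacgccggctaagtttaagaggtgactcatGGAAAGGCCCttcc

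The motifs were GAGGAA and GGAAGT (cores bound by ETS-family factors such as PU.1), TTGCNNAA (C/EBP-type), a 10-base NF-kappaB type motif and TATAAA. The *C3* window held TTGCNNAA, found in 9.56% of the 32851 windows of this length in the RefSeq table. The *C5ar1* window held GGAAGT at 2 positions, a motif of 19.7% of windows. The *C3ar1* window held TATAAA, found in 12.4% of windows, and the NF-kappaB type motif, found in 1.41%. Of the other members, *C5ar2* held GGAAGT and TTGCNNAA at one start and GAGGAA at another, and *Cd59a* held GAGGAA, a motif of 23.3% of windows. The windows of *Cfp*, *Cd55* and *Cr1l* held none of the 5, and *Cfb* had no entry. A match is a string of letters, not a bound site.

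*C3* (chr17:57203970-57228136, minus strand, mm10) was measured almost wholly outside microglia. In the *Disc1* WT/WT library its level was 0.306 CPM in microglia (interval 0.140 to 0.581, 9 UMIs), 142 CPM in neutrophils (115 to 174) and 34.2 CPM in other cells (28.4 to 40.9). In the *Disc1* LI/LI library it was 4.16 CPM in microglia (2.88 to 5.81, 34 UMIs), 155 CPM in neutrophils (150 to 160) and 113 CPM in other cells (108 to 118). Neutrophils of the 2 libraries had overlapping intervals, whereas the *Disc1* LI/LI library was higher in microglia and in other cells. A *C3* UMI was seen in 44.0% of 116 and 42.3% of 3622 neutrophils, and in 0.129% and 1.49% of microglia. Of all *C3* UMIs in cells, microglia held 9 of 225 in the *Disc1* WT/WT library and 34 of 5415 in the *Disc1* LI/LI library. Over all cells together the level was 6.70 CPM in the first and 114 CPM in the second, a gap that the neutrophils alone, class against class, did not show.

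*Cfp*, encoding properdin, the stabiliser of the C3-cleaving enzyme, was likewise lowest in microglia, with its highest level in other cells. Its level was 1.09 CPM in microglia, 61.5 CPM in neutrophils and 66.1 CPM in other cells of the *Disc1* WT/WT library, and 4.28, 79.1 and 145 CPM in those of the *Disc1* LI/LI library. The intervals of the neutrophils overlapped between the libraries (44.1 to 83.4 and 75.4 to 82.9 CPM), and those of the other cells did not (57.9 to 75.2 and 140 to 151 CPM). *Cfb*, encoding factor B, had few UMIs in every class. It had 6 UMIs in *Disc1* WT/WT microglia, 1 in *Disc1* LI/LI microglia, 0 and 15 in the neutrophils, and 13 and 59 in the other cells, where its level was 3.67 and 3.29 CPM. The 0 UMIs in the 116 *Disc1* WT/WT neutrophils allow a level of up to 4.497 CPM (3 counts), above the 0.695 CPM of the *Disc1* LI/LI neutrophils. The annotation places *Cfb* in overlap with the transcript unit *Gm20547* on the same strand, so its count is uncertain.

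**Figure D1:**
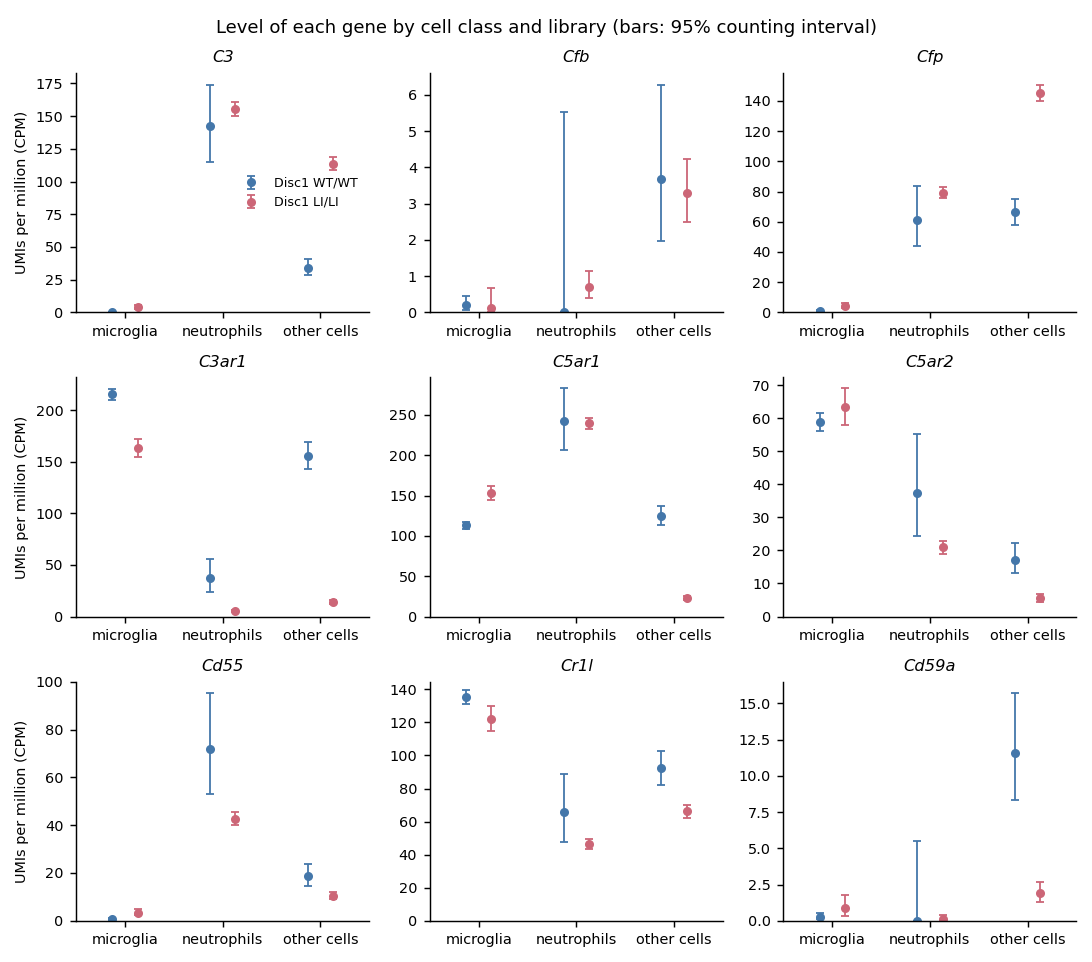
Level of each of the 9 genes in CPM (vertical axes, each from 0) in microglia, neutrophils and other cells (horizontal axes). Points are the sums over cells of the *Disc1* WT/WT (blue) and *Disc1* LI/LI (red) library and bars the 95% counting interval. *C3* and *Cd55* lay near 0 in microglia, *C3ar1* was highest there (215 and 163 CPM) and *C5ar1* was highest in neutrophils (243 and 239 CPM).

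Among the receptors, *C3ar1* (chr6:122847138-122856161, minus strand) had its highest level in microglia. It measured 215 CPM (210 to 221) in the microglia of the *Disc1* WT/WT library and 163 CPM (155 to 172) in those of the *Disc1* LI/LI library. In neutrophils it measured 37.5 CPM (24.2 to 55.3) and 5.56 CPM (4.61 to 6.65), and in other cells 155 CPM (143 to 169) and 14.0 CPM (12.4 to 15.9). Each class was lower in the *Disc1* LI/LI library, with no overlap of intervals. The neutrophil value of the *Disc1* WT/WT library rests on 25 UMIs, and the makeup of the other cells differed between the libraries. A *C3ar1* UMI was seen in 55.0% of the microglia in the first library and 42.7% in the second. At an equal 1000 UMIs a cell, which left out 104 and 17 shallower microglia, these shares were 17.8% (16.8 to 18.7) and 14.8% (13.2 to 16.5).

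*C5ar1* (chr7:16246743-16259540, minus strand), the signalling receptor for C5a, was high in both microglia and neutrophils. It measured 113 CPM (109 to 117) and 153 CPM (145 to 162) in microglia, 243 CPM (207 to 283) and 239 CPM (233 to 246) in neutrophils, and 124 CPM (113 to 137) and 23.2 CPM (21.0 to 25.5) in other cells of the *Disc1* WT/WT and *Disc1* LI/LI libraries. The microglia were higher in the *Disc1* LI/LI library, the other cells were lower, and the neutrophils overlapped. In microglia thinned to 1000 UMIs the share with a UMI was 9.74% (9.01 to 10.5) against 13.7% (12.2 to 15.3), as sequenced 34.7% against 39.5%. *C3ar1* and *C5ar1* thus lay in opposite order between the libraries within the same cells. *C5ar2*, a C5a receptor that does not couple to G proteins, is the neighbour of *C5ar1* on chromosome 7 and had its highest level in microglia, 58.7 CPM (56.0 to 61.6) and 63.4 CPM (58.1 to 69.1), with overlapping intervals. It measured 37.5 CPM (24.2 to 55.3) and 20.9 CPM (19.1 to 23.0) in neutrophils and 17.2 CPM (13.2 to 22.2) and 5.57 CPM (4.54 to 6.78) in other cells.

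*Cd55* (chr1:130439027-130462744, minus strand), the decay-accelerating factor that dismantles C3-cleaving enzymes, was rare in microglia of both libraries. It had 24 UMIs in 16 of 6180 *Disc1* WT/WT microglia and 28 UMIs in 14 of 1950 *Disc1* LI/LI microglia, or 0.259% and 0.718% of the cells. Its level was 0.817 CPM (0.523 to 1.22) and 3.43 CPM (2.28 to 4.95) there, 71.9 CPM (53.0 to 95.4) and 42.7 CPM (40.0 to 45.6) in neutrophils, and 18.7 CPM (14.4 to 23.7) and 10.5 CPM (9.04 to 12.1) in other cells. The few microglia with *Cd55* also carried markers of other cells. Their median depth was 7549.5 and 6419.5 UMIs, against 4271 and 3787.5 in all microglia. The part of depth in the shares that follow was not tested. The neutrophil markers used include *Csf3r*, which measured 143 and 123 CPM in all microglia of the 2 libraries. In the *Disc1* WT/WT library 8 of the 16 had 3 or more of 8 border-associated macrophage markers, against 2.56% of all its microglia, and 4 had 3 or more of 8 B cell markers, against 0.129%. In the *Disc1* LI/LI library 12 of the 14 had 3 or more B cell markers, against 1.79%, and 12 had 3 or more of 12 neutrophil markers, against 46.5%. With all microglia that had 3 or more markers of these cells, of classical monocytes or of neutrophils left out, *Cd55* had 4 UMIs in 5982 *Disc1* WT/WT microglia and 0 UMIs in 1018 *Disc1* LI/LI microglia, which allows up to 0.833 CPM (3 counts), a rule set after these values were seen.

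*Cr1l* (chr1:195097382-195131586, minus strand), the Crry gene, was the regulator found in every class. It measured 136 CPM (131 to 140) and 122 CPM (115 to 130) in microglia, 65.9 CPM (47.9 to 88.5) and 46.3 CPM (43.5 to 49.3) in neutrophils, and 92.2 CPM (82.4 to 103) and 66.1 CPM (62.4 to 70.0) in other cells. Its order of classes was the same in both libraries, microglia over other cells over neutrophils. *Cd59a* had 8 and 7 UMIs in microglia and 0 and 3 in neutrophils. Its 41 UMIs among the *Disc1* WT/WT other cells included 25 in a single cell. The counts of *Cd55* and *Cd59a* are uncertain because each lies beside a close paralog, *Cd55b* and *Cd59b*, for which the files list at most 0.0927 and 0.334 CPM in any class. The antisense transcript *Gm16083* overlaps *Cd55* on the other strand, and its effect on the count was not tested.

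Comparing neutrophils with microglia inside each library asked in which of the 2 classes each complement gene was higher. The libraries differed in how much marker RNA of one class was found in the other. Microglia markers in neutrophils had a median of 21.1% (*Disc1* WT/WT) and 3.84% (*Disc1* LI/LI) of their level in microglia. Neutrophil markers in microglia had a median of 0.0233% and 0.839% of their level in neutrophils. In the *Disc1* WT/WT library 4 of the 7 members with at least 10 UMIs were at least 1.5-fold higher in neutrophils (*C3*, *Cfp*, *C5ar1* and *Cd55*), where 12.6% of 12950 genes were, and 3 were lower (*C3ar1*, *C5ar2* and *Cr1l*), where 53.4% were. In the *Disc1* LI/LI library 5 of 9 were higher, the same 4 and *Cfb*, where 16.9% of 12703 genes were, and 4 were lower, the same 3 and *Cd59a*, where 68.3% were. *Cfb* reached 10 UMIs only through the neutrophils, with 15 UMIs against 1 in microglia. Its interval spanned 0 (log2 ratio 2.51, -0.19 to 7.90). *Cd59a* rests on 3 UMIs in neutrophils against 7 in microglia. The log2 ratios of neutrophils over microglia were 8.86 (7.88 to 10.0) and 5.22 (4.73 to 5.75) for *C3*, 5.82 (5.12 to 6.53) and 4.21 (3.73 to 4.73) for *Cfp*, 6.46 (5.73 to 7.23) and 3.64 (3.10 to 4.24) for *Cd55*, and 1.11 (0.87 to 1.33) and 0.64 (0.55 to 0.73) for *C5ar1*. The typical gene was lower in neutrophils, with a median log2 ratio over all genes of -0.88 and -1.33, beside 1.11 and 0.64 over the members compared. *C3ar1* lay well under it at -2.52 and -4.88, whereas *Cr1l* at -1.04 and -1.40 lay close to the medians of genes of like length, -0.93 and -1.38. Under TMM scaling, which sets the typical gene to 0 (a shift of 0.92 and 1.31), *C3*, *Cfp*, *C5ar1*, *Cd55* and *C3ar1* kept their call, *Cr1l* was -0.12 and -0.09, and *C5ar2* turned to 0.27 in the *Disc1* WT/WT library and was -0.29 in the *Disc1* LI/LI library. Among cells with at least 1000 genes, *C5ar1* was 0.30 in the *Disc1* LI/LI library, inside the fold.

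The difference between genotypes was then read class by class. In microglia, 4 of 8 members were at least 1.5-fold higher in the *Disc1* LI/LI library (*C3*, *Cfp*, *Cd55* and *Cd59a*), where 6.49% of 13137 genes were, and 0 were lower, where 19.9% were. These 4 rest on 7 to 35 UMIs in the microglia of a library, and the interval of *Cd59a* spanned 0 (log2 ratio 1.65, -0.04 to 3.31). The log2 ratio was 3.76 (2.67 to 5.01) for *C3*, 1.98 (1.24 to 2.71) for *Cfp* and 2.07 (1.23 to 2.92) for *Cd55*, which turned to -1.47 when the microglia cut was set at 1%. Of the *Disc1* WT/WT microglia with *Cfp*, 16 of 28 had 3 or more border-associated macrophage markers, against 2.56% of all. In the *Disc1* LI/LI library 2 of 31 did, and 17 had 3 or more neutrophil markers, against 46.5% of all. Microglia with *Cfp* had a median of 6114.5 and 4030 UMIs, against 4271 and 3787.5 in all microglia. The part of depth in these shares and the part of such cells in the *Cfp* ratio were not tested. The 4 members that microglia carried at high level all stayed inside 1.5-fold: *C3ar1* at -0.40 (-0.49 to -0.31), *C5ar1* at 0.44 (0.35 to 0.54), *C5ar2* at 0.11 (-0.03 to 0.25) and *Cr1l* at -0.15 (-0.25 to -0.05). The median was 1.05 over the 8 members and -0.17 over all 13137 genes, so that TMM scaling, with a shift of 0.18, put *C3ar1* at -0.22, *C5ar1* at 0.62, just past the fold, and *Cr1l* at 0.03.

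**Figure D2:**
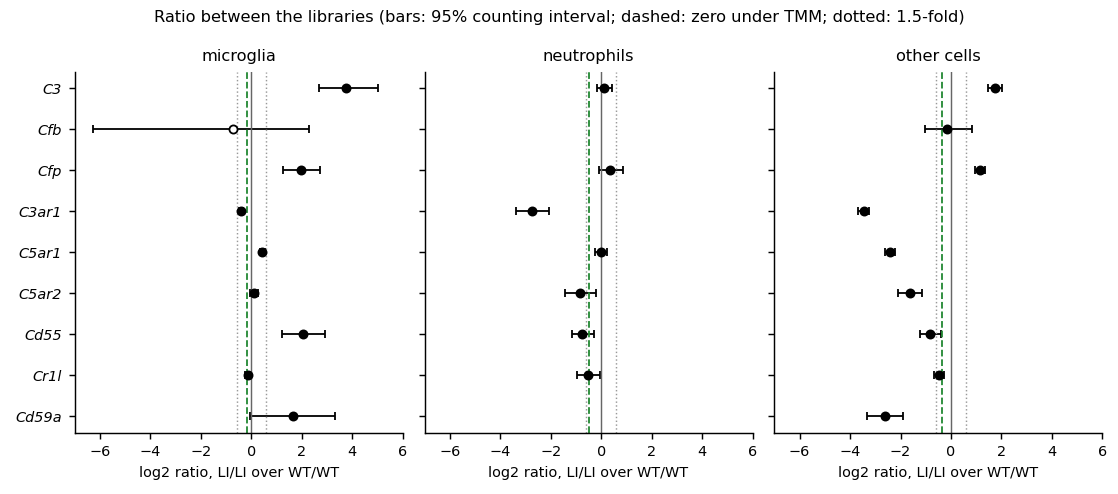
Log2 ratio of each gene's level in the *Disc1* LI/LI library over the *Disc1* WT/WT library (horizontal axis) in the 3 classes (panels). Points are filled where the gene had at least 10 UMIs over both libraries, bars are 95% counting intervals, dotted lines mark 1.5-fold and the dashed line the zero of TMM scaling. Genes with 0 UMIs in a class of one library are not drawn. *C3* and *Cfp* lay to the right in microglia and other cells, and *C3ar1* lay to the left in all 3 classes.

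In neutrophils, 0 of 8 members were at least 1.5-fold higher, where 8.91% of 11477 genes were, and 3 were lower (*C3ar1*, *C5ar2* and *Cd55*), where 40.3% were. *C3ar1* had a log2 ratio of -2.75 (-3.38 to -2.07), *C5ar2* of -0.84 (-1.42 to -0.20) and *Cd55* of -0.75 (-1.17 to -0.30). *C3* at 0.12 (-0.17 to 0.43), *Cfp* at 0.36 (-0.08 to 0.85) and *C5ar1* at -0.02 (-0.25 to 0.21) had intervals that held 0. The median was -0.29 over the members and -0.49 over all genes. TMM scaling, with a shift of 0.49, placed *C3* at 0.61 and *Cfp* at 0.85, both then past the fold, and *C5ar2* at -0.35 and *Cd55* at -0.26, both then inside it. *Cd55* was 0.086 with cells thinned to 1000 UMIs, where the *Disc1* WT/WT neutrophils keep few UMIs, and *C5ar2* was -0.44 without the neutrophils that carried microglia genes. *C3ar1* was past the fold under both scalings. It rests on 25 UMIs in *Disc1* WT/WT neutrophils, and its level there is set beside microglia markers with the plot of carry-over.

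In the other cells, 2 of 9 members were higher (*C3* and *Cfp*), where 13.2% of 13217 genes were, and 5 were lower (*C3ar1*, *C5ar1*, *C5ar2*, *Cd55* and *Cd59a*), where 41.4% were. The log2 ratios were 1.73 (1.46 to 2.01) for *C3*, 1.13 (0.94 to 1.33) for *Cfp*, -3.47 (-3.69 to -3.25) for *C3ar1* and -2.42 (-2.62 to -2.23) for *C5ar1*, with a median of -0.84 over the members and -0.39 over all genes. TMM scaling, with a shift of 0.37, put *Cd55* at -0.46, inside the fold, and kept the other 6 calls. *Cd55* became 0.66 with a microglia cut of 1%, and *Cd59a* became 0.90 with cells thinned to 1000 UMIs. The makeup of this class differed between the libraries, with 801 cells in the *Disc1* LI/LI library and 19 in the *Disc1* WT/WT library that carried most markers of classical monocytes, and 9 and 73 that carried most markers of border-associated macrophages. Cells that carried most markers of the microglia list, though outside the microglia class, were 411 of the 2245 other cells in the *Disc1* LI/LI library. In the *Disc1* WT/WT library they were 436 of 736. Gene level per cell and cell makeup cannot be told apart in the sum.

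The subdivisions of the other cells, named by the marker list of which a cell held the most genes, showed which cells carried the members. In the 801 classical monocyte-like cells of the *Disc1* LI/LI library, whose 6 list genes summed to 6189 CPM, *C3* measured 175 CPM (164 to 186) and *Cfp* 191 CPM (180 to 203). *C5ar1* measured 16.2 CPM (13.1 to 19.8) there, *C3ar1* 1.70 CPM (0.817 to 3.13) and *Cd55* 0.852 CPM (0.277 to 1.99). These monocyte-like cells had *C3* somewhat above the 155 CPM of the neutrophils in the same library, with little of the receptors. The 19 such cells of the *Disc1* WT/WT library had *C3* at 243 CPM (172 to 333) and *Cfp* at 160 CPM (103 to 236).

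Border-associated macrophages, which sit in the meninges and around vessels, carried more *C3ar1* and *C5ar1*. In the 73 macrophage-like cells of the *Disc1* WT/WT library *C5ar1* measured 430 CPM (351 to 520), *C3ar1* 348 CPM (278 to 430), *Cfp* 147 CPM (103 to 204), *Cd55* 115 CPM (76.1 to 166) and *Cr1l* 115 CPM (76.1 to 166). *C3* had 3 UMIs there, all in 1 cell. *C5ar1* and *C3ar1* were higher than in the microglia of the same library, where *Cd55* was 0.817 CPM. *C5ar2* at 45.0 CPM (22.5 to 80.5) was not higher, beside 58.7 CPM in those microglia. In the 117 B cell-like cells of the *Disc1* LI/LI library *Cd55* measured 154 CPM (122 to 191) and *C3* 19.2 CPM (9.20 to 35.3), and in its 53 natural killer-like cells *Cd55* measured 49.8 CPM (22.8 to 94.6), *Cr1l* 99.6 CPM (59.0 to 157) and *C3* had 0 UMIs. *Cd59a*, which guards cells against the membrane pore, was found in endothelial-like cells, with 6 UMIs in 16 cells of the *Disc1* WT/WT library (131 CPM, 48.1 to 285) and 16 UMIs in 24 cells of the *Disc1* LI/LI library (310 CPM, 177 to 504). A further 194 cells of the *Disc1* LI/LI library held most neutrophil list genes, but their progenitor list genes summed to 19875 CPM with *Elane* at 8399 CPM, against 1188 CPM for the neutrophil list, so they are given no cell type name. In these *Elane*-rich cells *C3* measured 94.01 CPM (82.9 to 106), *Cfp* 139 CPM (126 to 154) and *C5ar1* 16.2 CPM (11.8 to 21.7).

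**Figure D3:**
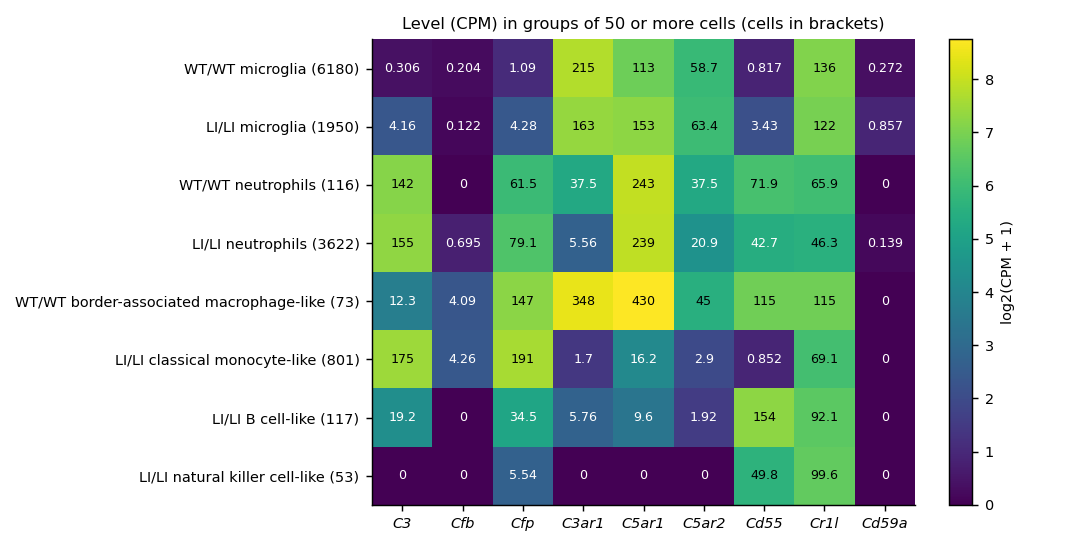
Level in CPM (numbers) and as log2(CPM + 1) (colours) of the 9 genes (columns) in groups chosen from those of 50 or more cells (rows, with the number of cells in brackets). The other cells that carried most markers of the microglia or neutrophil list are not drawn. *C3* is high in neutrophils and classical monocyte-like cells (142 to 175 CPM), *C3ar1* in microglia and macrophage-like cells (163 to 348 CPM), and *Cd55* in neutrophils, macrophage-like, B cell-like and natural killer-like cells (42.7 to 154 CPM).

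Neutrophils were not uniform for these genes. After the values were seen, they were split by the share of UMIs from *Camp*, *Ltf*, *Ngp* and *Lcn2*, which encode proteins of the secondary granules. The cuts were the quartiles of the *Disc1* LI/LI library (906, 905, 905 and 906 cells). From the lowest to the highest granule share, *C3* in that library measured 78.3 CPM (68.8 to 88.7), 105 CPM (94.4 to 117), 134 CPM (125 to 144) and 210 CPM (201 to 219). The *Disc1* WT/WT neutrophils, with 39, 27, 20 and 30 cells, had 47.1, 108, 85.7 and 237 CPM, so *C3* was highest in the granule-rich bin of both libraries.

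The receptors *C5ar1* and *C5ar2* and the regulator *Cr1l* were lowest in the granule-rich bin of the *Disc1* LI/LI library. *C5ar2* in the *Disc1* LI/LI library measured 50.1, 33.2, 18.1 and 8.77 CPM and *Cr1l* 64.0, 64.4, 49.0 and 32.7 CPM over the same 4 bins, and *C5ar1* measured 288, 354, 270 and 167 CPM. *C5ar2* in the *Disc1* WT/WT library measured 118 CPM in the lowest bin and 7.53 CPM in the highest. *Cd55* peaked in the third bin of the *Disc1* LI/LI library, with 8.56, 28.1, 77.4 and 38.8 CPM. *Cfp* measured 90.0, 113, 98.2 and 52.8 CPM. *Cxcr2*, the chemokine receptor of mature neutrophils, measured 645, 680, 377 and 91.6 CPM in these bins, and *Elane*, a gene of early granulocyte precursors, 6303, 2158, 1806 and 258 CPM, so the lowest bin mixed mature and very immature cells. The median UMIs per cell were 2274, 3064, 5091 and 8590, and the part of depth in these orders was not tested. Microglia markers outside the class rule summed to 3371, 1890, 1890 and 621 CPM in the same bins. In the bins of the *Disc1* WT/WT library they summed to 10853, 7537, 10275 and 2948.5 CPM. The part of microglia RNA in these orders was not tested.

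**Figure D4:**
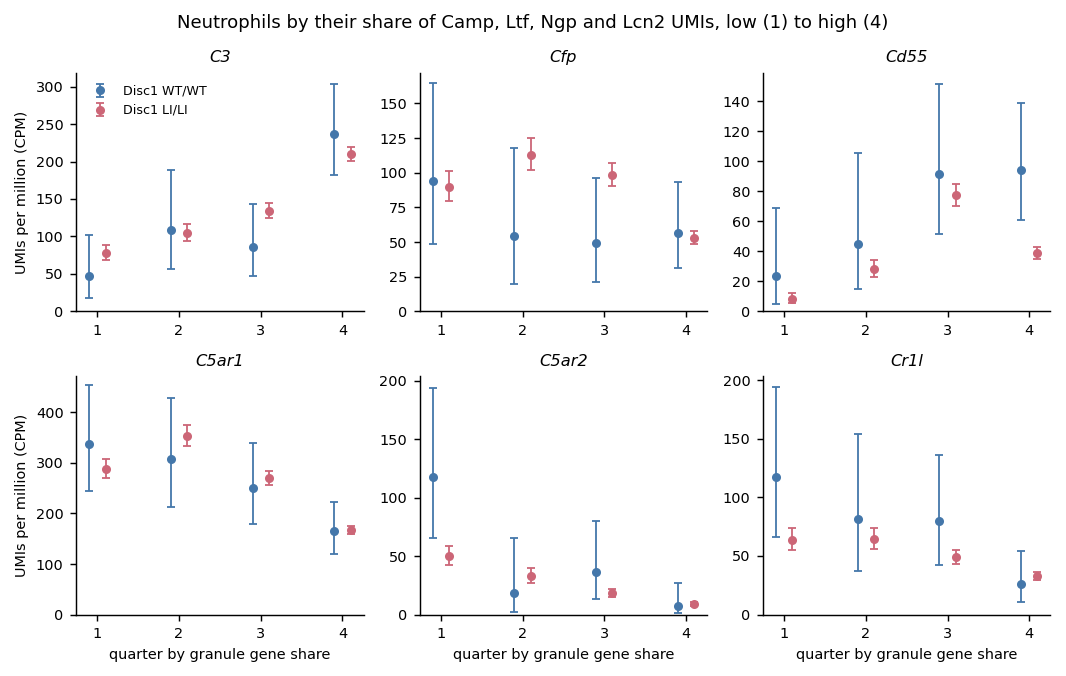
Level in CPM (vertical axes, from 0) of 6 genes in neutrophils split by their share of *Camp*, *Ltf*, *Ngp* and *Lcn2* UMIs (horizontal axes, 1 lowest to 4 highest), in the *Disc1* WT/WT (blue) and *Disc1* LI/LI (red) library, with 95% counting intervals. In the *Disc1* LI/LI library *C3* goes from 78.3 to 210 CPM and *C5ar2* from 50.1 to 8.77 CPM.

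Low values in a droplet library can come from RNA of other cells. For this reason *C3*, *Cfp*, *Cd55*, *C3ar1*, *C5ar2* and *Cr1l* were each set beside markers of microglia or neutrophils, whichever class had the higher level. In *Disc1* WT/WT microglia, 11 of the 12 neutrophil markers lay at 0.0114% to 0.191% of their level in neutrophils, and in *Disc1* LI/LI microglia at 0.437% to 1.99%. The exception was *Csf3r*, at 53.4% and 56.2%. The highest of the 11 was *Il1r2* in both libraries, and the next in the *Disc1* WT/WT library was *Cxcr2* at 0.0377%. *C3* lay at 0.215% and 2.68%, above these ranges, *Cfp* at 1.77% and 5.41%, and *Cd55* at 1.14% and 8.02%. In *Disc1* WT/WT microglia *C3* rests on 9 UMIs and *Il1r2*, at 0.191%, on 12, so the order of these 2 genes is uncertain there. In the *Disc1* LI/LI library 907 of the 1950 microglia had 3 or more neutrophil markers, against 10 of 6180 in the *Disc1* WT/WT library. *C3* and *Cfp* are also high in monocyte-like cells, which these markers do not cover. In microglia, *C3* and the neutrophil markers were both higher in the *Disc1* LI/LI library. The part of neutrophil RNA in the *C3* level was not tested. With all microglia that held 3 or more markers of other cells left out, *C3* was 0.249 CPM (7 UMIs) and 3.33 CPM (12 UMIs). That step did not lower *S100a8* and *S100a9*, which summed to 709 CPM in the *Disc1* LI/LI microglia kept and 687 CPM in all of them.

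In the other direction, the 10 microglia markers lay in *Disc1* WT/WT neutrophils at 18.9% to 27.0% of their level in microglia, and in *Disc1* LI/LI neutrophils at 3.47% to 11.1%. *C3ar1* lay at 17.4% and 3.40%, below the lowest marker of both ranges. It rests on 25 and 120 UMIs in neutrophils. As log2 ratios these 2 percents were -2.52 (-3.15 to -1.96) and -4.88 (-5.16 to -4.61). No interval is given for the markers, so the place of *C3ar1* under them is uncertain. Leaving out the 11 and 57 neutrophils with at least 0.5% microglia gene UMIs took *C3ar1* to 12.7% and 2.72%, beside markers at 9.41% to 18.8% and 2.13% to 9.98%. The part of microglia RNA in the *C3ar1* of neutrophils was not tested. *C5ar2* at 63.8% and 33.0% and *Cr1l* at 48.6% and 37.9% lay above the markers in both libraries.

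**Figure D5:**
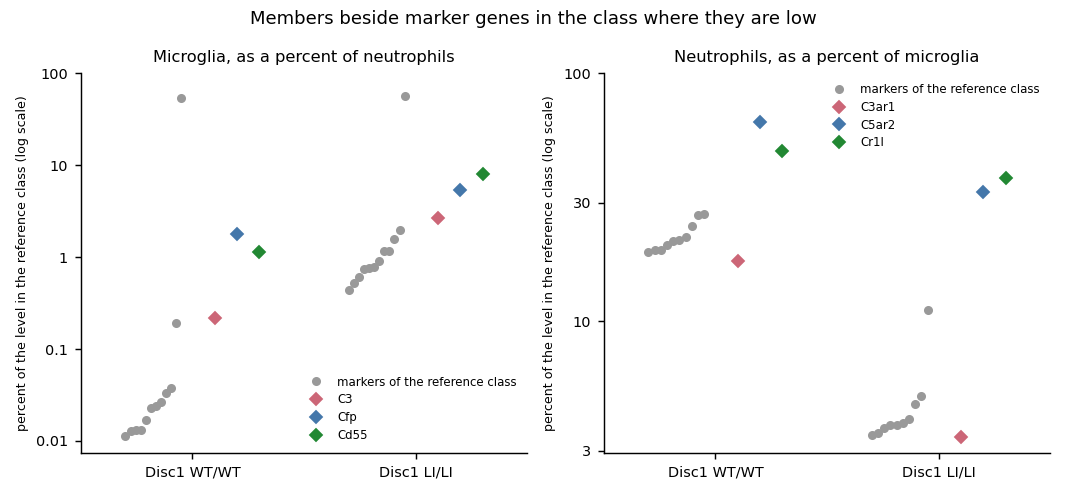
Level of a gene in one class as a percent of its level in another (vertical axes, log scale), for the *Disc1* WT/WT and *Disc1* LI/LI library. Grey points are marker genes of the reference class and diamonds are members. Left, neutrophil markers and *C3*, *Cfp* and *Cd55* in microglia, where the grey point above 50% is *Csf3r*. Right, microglia markers and *C3ar1*, *C5ar2* and *Cr1l* in neutrophils. There *C3ar1*, drawn without an interval and resting on 25 and 120 UMIs, lies under the lowest marker, and the other 2 lie above the markers.

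The wider complement list of 59 genes, members included, placed these genes in context. In microglia 30 of the 59 had at least 10 UMIs, of which 7 were at least 1.5-fold higher and 8 lower in the *Disc1* LI/LI library, where 6.49% and 19.9% of all genes were. The 7 included the 4 members already counted (*C3*, *Cfp*, *Cd55* and *Cd59a*). They also included *Fcnb*, with 1 UMI in *Disc1* WT/WT and 34 UMIs in *Disc1* LI/LI microglia. Of the 7 terminal components 1 (*C8g*) had at least 10 UMIs there, and *Cfd* and *Cfi*, which encode factors D and I, had 0 UMIs in every class. The microglia expressed the classical pathway recognition genes *C1qa*, *C1qb* and *C1qc* at 10469, 9000 and 7760 CPM in the *Disc1* WT/WT and 14032, 12109 and 9688 CPM in the *Disc1* LI/LI library. All lay inside 1.5-fold as unscaled CPM. Their ratios under TMM scaling, with its shift of 0.18, are not given here. *Itgam*, the alpha chain of complement receptor 3, was 757 CPM and 514 CPM there. *Itgb2*, its beta chain, measured 181 and 210 CPM, *Calr* 508 and 527 CPM and *C1qbp* 107 and 103 CPM. In neutrophils the lectin *Fcnb* measured 120 CPM and 277 CPM, and *Itgb2* 286 and 252 CPM. In other cells *Cd93* measured 50.03 and 44.4 CPM and *Clu*, a fluid-phase inhibitor of the pore, 79.7 and 5.63 CPM.

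Genes that followed the members most closely over 13 groups of at least 50 cells (Pearson's r of log2(CPM + 1), 5303 genes, groups sharing libraries) are given as a description. For *C3* they were *Slfn1* (r = 0.98), *Mgst1* and *Sirpb1b*, for *Cfp* *Ifitm2* (0.98), *Emilin2* and *Ifitm3*, and for *C3ar1* *Snx24* (0.98) and *Hpgds*. *C5ar1* was followed by *Hist1h2bc* (0.97), *Cd33* and *Slc6a6*, *C5ar2* by *Tcn2* (0.97), *Pnpla7* and *Sipa1l2*, and *Cr1l* by *Exoc3* (0.98), *Rhoq* and *Tmem245*. *Cd55* had the least close followers, *Gm26740* (0.82), *Cyth1* and *Ripor2*, and *Cd59a* was followed by *Mt3* (0.96), *Clu* and *Igfbp7*, with 25 of the 29 UMIs of its highest group in 1 cell. At 1000 UMIs a cell, *C3ar1* and *C5ar1* showed little tendency to share microglia: a *C5ar1* UMI was seen in 10.8% of the *Disc1* WT/WT microglia with a *C3ar1* UMI and in 9.53% of those without, and in 15.4% and 13.4% of those of the *Disc1* LI/LI library.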

How the data were processed

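The authors pooled brains, sorted CD45 low, CD11b+ cells, prepared droplet 3′ libraries and deposited UMI counts per gene and barcode, made with Cell Ranger 6.1.2 (per the file headers) on mm10; STAR and Seurat 3.0.1 are also named in the submitters' processing notes. The counts are raw, filtered to called barcodes, with no doublet caller run here. From them, counts were summed per library and class and divided by the class total (CPM), with exact Poisson intervals for levels, Clopper-Pearson intervals for shares and conditional exact intervals for ratios (scipy 1.17.1, 95%). A gene entered a comparison with at least 10 UMIs over both sums and was called at 1.5-fold; a sum of 0 was put at 3 counts and called only past that bound. No p-value was computed. TMM factors came from edgeR 4.0.16. The code for ratios and intervals was checked on simulated independent Poisson counts, the model that the intervals assume. That check does not cover UMIs clustered in few cells. Near the cuts, 1852 and 768 microglia had 0.5% to 1% marker UMIs, and 262 and 181 other cells 0.25% to 0.5%. Cells were thinned once with a fixed seed. Coordinates are GENCODE vM21 genes on GRCm38. Named genes were all members, listed complement genes of at least 50 CPM in a class, and the 3 genes most like each member of at least 10 CPM; some of these are not reported here. Members and lists were chosen with earlier results of these data known. Pools of 6 mice per library leave animal spread unmeasured.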

Additional observations from a re-analysis of the deposited data

Results flagged for a closer look

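In 2 genes the ratio of the *Disc1* LI/LI over the *Disc1* WT/WT library pointed in opposite directions in different classes, with both counting intervals clear of 0; the difference between classes was not tested, since each genotype is 1 library. *C5ar1* had a log2 ratio of 0.44 in microglia, inside 1.5-fold as unscaled CPM, and -2.42 in other cells. The makeup of the other cells differed between the libraries, so gene level per cell and cell makeup cannot be told apart in the second value. *Cd55* had a log2 ratio of 2.07 in microglia, where it rests on 28 and 24 UMIs, against -0.75 in neutrophils and -0.83 in other cells. Each of these 3 *Cd55* ratios changed sign under an alternative: to -1.47 in microglia and 0.66 in other cells with a microglia cut of 1%, and to 0.086 in neutrophils with cells thinned to 1000 UMIs. With microglia that held markers of other cells left out, 4 *Disc1* WT/WT and 0 *Disc1* LI/LI UMIs of *Cd55* remained. The microglia with *Cd55* were largely those with markers of B cells or border-associated macrophages, whose part in the ratio was not tested.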

How the results depend on the processing

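The 5 counts of members past 1.5-fold were recomputed under 16 alternatives, 3 of them chosen after seeing the data, and stayed within 1.5 times of the value given except in microglia between the libraries, where 4 became 2 with no *S100a8* or *S100a9* UMI allowed (157 *Disc1* LI/LI microglia remained), 2 with at least 50 UMIs required, and 1 with cells thinned to 1000 UMIs. In the last case *C3*, *Cd55* and *Cd59a* have under 10 UMIs. Each count adds both directions, so an equal count does not mean the same members or directions. In neutrophils between the libraries, TMM factors put *C3* and *Cfp* past the fold as higher and *C5ar2* and *Cd55* inside it, with the total unchanged. Of 490 recomputed log2 ratios of members, 384 stayed inside their counting interval, 100 moved outside it and 6 called ones changed sign. With a microglia cut of 1%, *Cd55* between the libraries became -1.47 in microglia and 0.66 in other cells. *C5ar2* in neutrophils over microglia of the *Disc1* WT/WT library became 0.27 with TMM factors and 0.28 with thinned cells. With thinned cells, *Cd55* between the libraries became 0.086 in neutrophils, and *Cd59a* became 0.90 in other cells, where 25 of its 41 *Disc1* WT/WT UMIs lie in 1 cell. Thinning was drawn once, and draws of so few UMIs vary. *C5ar1* in neutrophils over microglia of the *Disc1* LI/LI library was 0.30, inside the fold, among cells with at least 1000 genes. The cause of these changes was not tested. TMM factors moved the share of all genes called higher and lower from 8.91% and 40.3% to 21.3% and 22.3% in neutrophils between the libraries, from 13.2% and 41.4% to 25.2% and 28.2% in other cells, and from 12.6% and 53.4% to 24.6% and 27.4% (*Disc1* WT/WT) and 16.9% and 68.3% to 34.8% and 36.8% (*Disc1* LI/LI) for neutrophils over microglia; in microglia between the libraries the shares went from 6.49% and 19.9% to 9.37% and 11.5%. In microglia between the libraries, genes called higher numbered 853, against 1781 with at least 1 UMI and 326 with at least 50. Taking 0 counts as past the fold moved the genes called higher in neutrophils between the libraries from 1023 to 2228. In microglia, median log2 ratios between the libraries ran from 0.09 in the shortest to -0.42 in the longest of 4 bins of genes by length. The 116 *Disc1* WT/WT neutrophils limit every statement on that class. No paired analysis was possible because each genotype is 1 pooled library. Leaving out a replicate was not possible for the same reason.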
